A study of Mus musculus with 4 samples.

Results

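Collagens are the trimeric structural proteins of the extracellular matrix, and the genes described here encode their chains. The 42 collagen chain genes, among 18193 genes named on the array, were every gene with a symbol of the form Col, a number, a and a number that the platform annotation names alone on a probe set, the group of short probes that reports a transcript. They are measured by 82 of 45037 probe sets, and where a gene has several, the one of highest mean signal stands for it. The RNA was that of E15.5 mouse back skin, taken after dispase had freed the dermis from its epidermis. The labels give mutant and control arrays, mutant embryos (KRT14-Cre Ctnnb1(Ex3)fl/+, 2 arrays) and control littermates (2 arrays), whose own genotype is not given further. KRT14-Cre acts in surface epithelium, where loss of exon 3 stabilises beta-catenin, so the dermis is not the tissue that recombines. The study asked how the dermis differs beneath an epithelium with activated beta-catenin. Each array is 1 embryo.

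Collagen chains wind in threes around a repeated glycine. Fibrillar chains (types I, III and V in skin) build the banded fibres of the dermis, and fibril-associated collagens with interrupted helices, the FACIT class, decorate those fibres. Network chains of type IV lie in basement membranes, type VII anchors the epidermal basement membrane to the dermis, types II, IX, X and XI belong to cartilage, and transmembrane collagens sit in cell surfaces. Embryonic dermis makes collagen mainly in fibroblasts.

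The arrays did not group by label. Signals are scaled intensities, with a trimmed mean of 150.0 on each array. The log2 signals of mutant 2 correlated at 0.981 with control 1 and at 0.953 with mutant 1, and those of mutant 1 at 0.984 with control 2, across 22519 probe sets, which are not independent. The instrument records put the scans in the order control 2, mutant 1, control 1, mutant 2 on 1 day, and they give mouse epidermis as the sample type of every array, where the sample titles have dermis. The dermal fibroblast genes Pdgfra, Twist2, Dpt, Lum, Dcn and Crabp1 were detected throughout, at signals of 712 to 7059. Their summed signal was 27735 on mutant 1 and 12545 on mutant 2, against 15305 on control 1 and 25228 on control 2. Signals of Xist, a transcript of the inactive X chromosome, were 11.4 on mutant 1 and 3108 on mutant 2, against 3836 on control 1 and 3512 on control 2, so the arrays also differ by sex. Of the 153 probe sets in the authors' deposited table, which gives folds of mutant over control, 152 had mutant 2 and control 1 both on the mutant side of that fold and 0 had mutant 1 and control 2 there, while 73 had the opposite sign by array label. The array labels and the authors' deposited table thus disagree on which arrays are mutant, and whether labels were exchanged on deposit was not tested. Every mutant minus control value below follows the array labels, and its direction rests on them. Values are therefore given for every array, by label and within the pairs mutant 2 with control 1 and mutant 1 with control 2, which were proposed from these arrays. Both arrays of the pair mutant 1 with control 2 were scanned before the other pair, so pair and scan order cannot be told apart. Fewer cells of a type and less RNA per cell cannot be told apart in these samples.

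By label, no collagen passed. Of 22519 probe sets tested, 0 passed limma's adjusted p threshold of 0.05 (0%), and 0 of 35 tested collagens did, each with a limma adjusted p of 0.9999. At an unadjusted p under 0.05 there were 0 collagens, where 98 of 11413 tested genes (0.859%) met it. The pairs mattered to this count. With the crossed pairs as a block, an alternative chosen after seeing the data, 108 probe sets (0.480%) passed limma's adjusted p threshold, 0 of them collagens. In that fit 11 of 35 collagens, among them all 6 tested cartilage genes, had an unadjusted p under 0.05 (5.24% of tested genes). The lowest limma adjusted p among collagens in that fit was 0.0976, for Col11a2. The 6 cartilage genes had a median log2 difference, mutant minus control, of 4.27 between mutant 2 and control 1. Between mutant 1 and control 2 it was -0.21. Their p-values thus rest on mutant 2, which also carried several of them past the filter. The p-values of these 6 genes therefore do not show a difference by label across both pairs. The rest of the 11 were Col5a3, Col7a1, Col8a1, Col8a2 and Col27a1. Col7a1 differed by -0.35 between mutant 2 and control 1 and by -0.25 between mutant 1 and control 2. In the same order, Col8a2 differed by 0.47 and 0.38. A single pair held most of the difference for Col5a3 (0.041 and 1.12), Col8a1 (0.95 and 0.059) and Col27a1 (0.94 and -0.13). The 7 members not tested, Col4a3, Col4a4, Col4a6, Col6a4, Col6a5, Col10a1 and Col22a1, lay under the filter on dim probe sets. The tested members' median log2 difference, mutant minus control, was 0.054, against -0.00419 over all tested genes, and 22 of 35 lay above 0, where 48.7% of tested genes did. Both mutant arrays lay above both control arrays for 2 tested collagens, Col11a2 and Col19a1 (8.97% of tested genes), and below for 1, Col18a1 (11.0% of tested genes). With 3 arrays groups part more readily, for all genes too. The count above was then 11 without mutant 1 (30.1% of tested genes), 14 without mutant 2 (26.2%), 7 without control 1 (32.7%) and 10 without control 2 (26.4%). The count below was 12 without mutant 1 (30.2%), 9 without mutant 2 (30.6%), 10 without control 1 (31.3%) and 3 without control 2 (32.3%).

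Within the pairs, 14 of 35 tested collagens lay lower on both mutant 2 and control 1 than on both mutant 1 and control 2 (23.9% of tested genes), and 7 lay higher (29.6% of tested genes). The median size of the difference within a pair, whichever its sign, was 0.20 log2 units between mutant 2 and control 1 and 0.19 between mutant 1 and control 2. Outside the cartilage class these sizes were 0.15 and 0.18, against 0.13 and 0.14 over all tested genes. The highest of the 4 arrays was mutant 1 for 12 tested collagens and mutant 2 for 11, against control 1 for 2 and control 2 for 10. Over all tested genes these shares were 21.7% for mutant 1 and 25.6% for mutant 2, against 26.1% for control 1 and 26.5% for control 2.

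**Figure D1:**
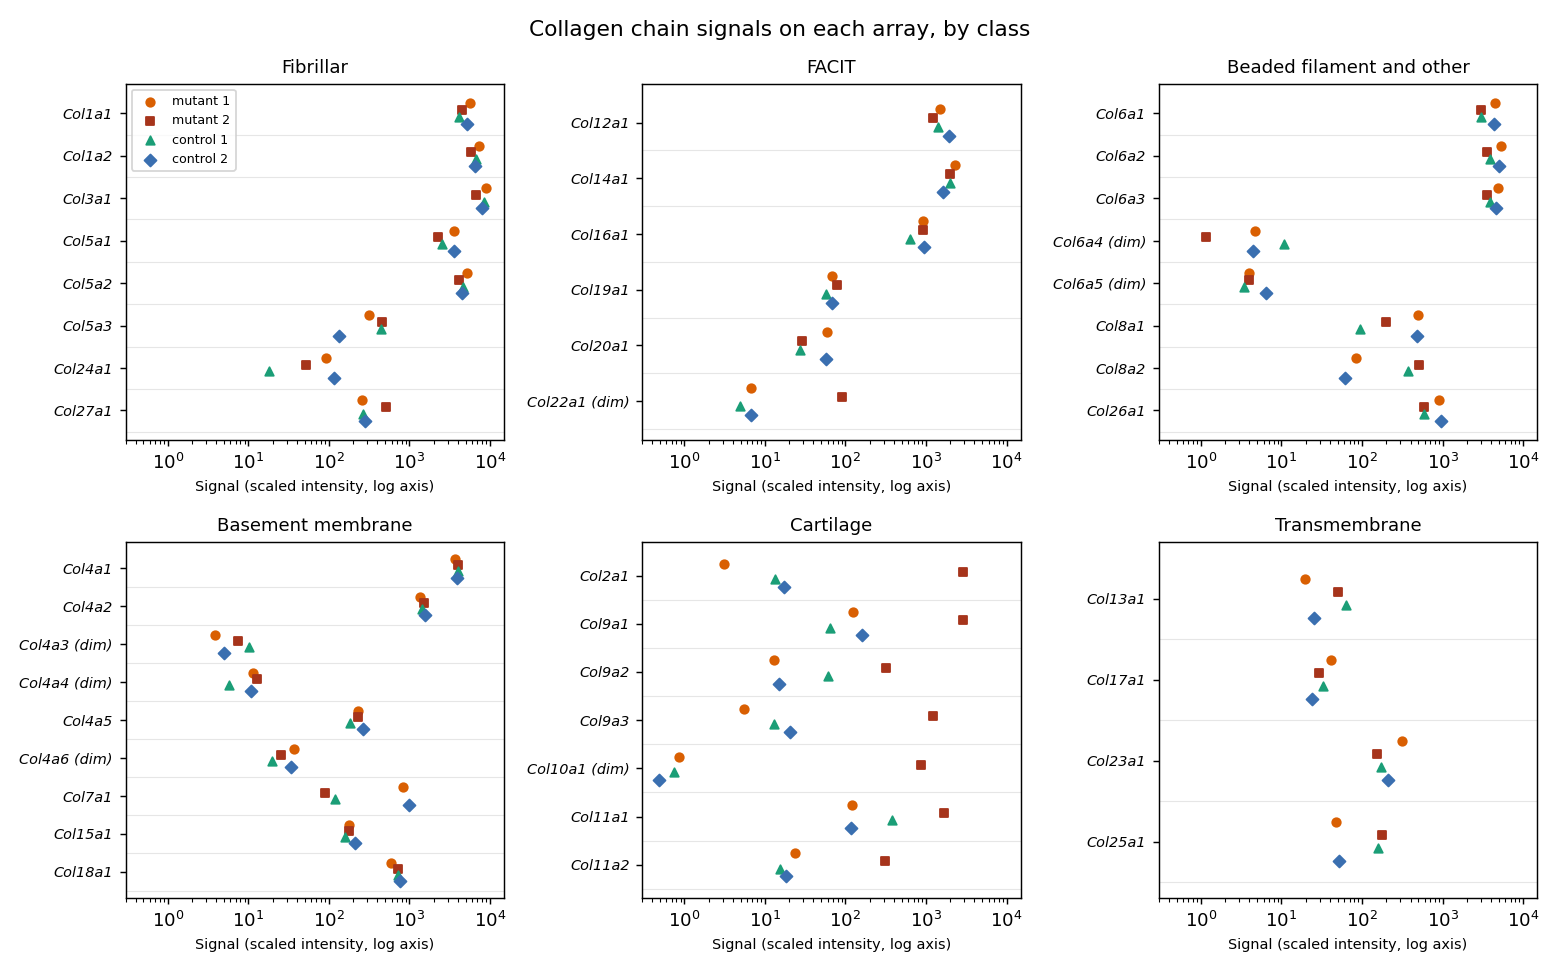
Signal of each of the 42 collagen genes (x axis, scaled intensity on a log axis) on mutant 1, mutant 2, control 1 and control 2 (points), in panels by class; members under the filter are marked dim. The cartilage panel has mutant 2 far to the right of the other 3 arrays, and Col7a1 has mutant 1 and control 2 to the right of mutant 2 and control 1.

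Promoters are shown for 6 members with 1 start each in the RefSeq table, picked after their values were seen: Col10a1, Col11a1 and Col11a2 as cartilage collagens high on mutant 2, and Col7a1, Col8a1 and Col8a2 as collagens that differed between the pairs. The table held 33 of the 42 genes, and the first entry of a gene was searched. Each sequence is the 250 bases before the RefSeq start on GRCm38.p6, 5′ to 3′ on the gene's strand. Capitals mark matches, on either strand, to TATAAA (the TATA box), CCAAT (bound by NF-Y), GGGCGG (the GC box bound by Sp1) and ACAAAG or ACAATG (forms of the Sox core). The windows are chr10:34389731-34389980 (Col10a1, plus strand), chr3:114030290-114030539 (Col11a1, plus), chr17:34038888-34039137 (Col11a2, plus), chr9:108953336-108953585 (Col7a1, plus), chr16:57754738-57754987 (Col8a1, minus) and chr4:126286544-126286793 (Col8a2, plus).
Col10a1: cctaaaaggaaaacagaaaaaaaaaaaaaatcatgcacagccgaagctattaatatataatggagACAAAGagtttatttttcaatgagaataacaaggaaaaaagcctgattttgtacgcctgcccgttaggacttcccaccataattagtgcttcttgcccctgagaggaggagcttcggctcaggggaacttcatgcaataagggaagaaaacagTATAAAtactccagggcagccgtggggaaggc
Col11a1: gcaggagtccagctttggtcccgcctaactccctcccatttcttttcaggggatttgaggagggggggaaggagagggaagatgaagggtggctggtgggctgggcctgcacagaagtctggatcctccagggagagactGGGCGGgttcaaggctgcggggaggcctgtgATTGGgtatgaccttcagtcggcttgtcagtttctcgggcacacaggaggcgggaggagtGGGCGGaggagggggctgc
Col11a2: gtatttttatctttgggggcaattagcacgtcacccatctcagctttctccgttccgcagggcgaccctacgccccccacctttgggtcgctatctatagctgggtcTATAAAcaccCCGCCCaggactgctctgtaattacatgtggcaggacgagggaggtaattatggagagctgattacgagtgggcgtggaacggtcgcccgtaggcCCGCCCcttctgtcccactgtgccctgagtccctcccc
Col7a1: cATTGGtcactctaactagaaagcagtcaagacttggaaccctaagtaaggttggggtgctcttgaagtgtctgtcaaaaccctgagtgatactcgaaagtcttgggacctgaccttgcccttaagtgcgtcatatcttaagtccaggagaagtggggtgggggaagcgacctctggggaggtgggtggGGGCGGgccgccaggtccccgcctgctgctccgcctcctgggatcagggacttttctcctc
Col8a1: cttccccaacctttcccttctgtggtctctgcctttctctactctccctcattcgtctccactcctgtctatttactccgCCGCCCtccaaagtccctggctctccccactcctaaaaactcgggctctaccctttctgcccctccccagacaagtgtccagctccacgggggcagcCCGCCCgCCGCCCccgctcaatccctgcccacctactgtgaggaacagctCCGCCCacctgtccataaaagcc
Col8a2: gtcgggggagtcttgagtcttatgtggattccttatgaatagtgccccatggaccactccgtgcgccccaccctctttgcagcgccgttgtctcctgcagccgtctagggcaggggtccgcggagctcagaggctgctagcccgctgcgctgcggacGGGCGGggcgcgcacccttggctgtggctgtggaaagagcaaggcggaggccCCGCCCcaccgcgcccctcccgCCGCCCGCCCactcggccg

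The GC box was matched in 5 of these 6 windows and in 20 of the 33 collagen promoters, against 32.7% of 32851 promoters in the table. Shares over the table count every entry, where each collagen gene counts by its first entry. Only Col10a1 of the 6 lacked the GC box, and its window held instead TATAAA at -32 to -27 from the start and ACAAAG at -185 to -180. The G and C content of that window was 41.6%, against 56.4 to 70.0% in the other 5 and a median of 52.4% over the table. TATAAA was matched in 5 of 33 collagen promoters (12.4% of all), CCAAT in 12 (33.8% of all), ACAAAG in 3 (16.5% of all) and ACAATG in 0 (10.7% of all). The Col8a1 window held 4 GC boxes and no other match, and the Col8a2 window also held 4, of which 2 overlap. CCAAT was matched in the windows of Col11a1 and Col7a1, and TATAAA in those of Col10a1 and Col11a2. A match is a run of letters and not a measured site.

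Fibrillar collagens, the bulk of dermal fibres, differed little by label for types I and III, whose 3 genes had signals of 4101 to 8886. Col1a1, the main chain of type I collagen, gave 5641 on mutant 1 and 4453 on mutant 2, against 4101 on control 1 and 5169 on control 2. Each ± here and below is limma's moderated SE for 2 mutant and 2 control arrays. It is drawn toward the spread of all tested probe sets of like signal, so it is not the arrays' own SE. For Col1a1 the log2 difference came to 0.12 ± 0.19, and the groups overlapped. Its partner Col1a2 gave 7388 and 5771 on the mutant arrays, against 6762 and 6526 on the control arrays, a difference of -0.025 ± 0.17. Col3a1, the chain of type III collagen that is abundant in embryonic skin, gave 8886 and 6793 on the mutant arrays, against 8353 and 7931 on the control arrays (-0.067 ± 0.18). The highest array was mutant 1 for all 3 genes, and mutant 2 was the lowest for Col1a2 and Col3a1. The other tested probe sets of Col1a2 and Col3a1 had mutant 1 and control 2 above mutant 2 and control 1, which the ones given here did not. Of the type V chains, which set fibril diameter, Col5a2 ranged from 4116 to 5114. Its pairs overlapped on the probe set given but not on its other tested one, which had mutant 1 and control 2 above the other pair. Col5a1 gave 3566 and 2273 on the mutant arrays, against 2516 and 3569.7 on the control arrays. Mutant 1 and control 2 were thus the high arrays for Col5a1.

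Col5a3, a minor type V chain, had the largest fibrillar difference at 0.58 ± 0.55. It gave 313 and 451 on mutant 1 and mutant 2, against 438 and 135 on control 1 and control 2. Control 2 was the lowest, and mutant 2 and control 1 lay above the other pair, by 1.40 times between nearest arrays. Col27a1, a fibrillar chain also made by cartilage, gave 255 and 519 on the mutant arrays, against 263 and 281 on the control arrays (0.40 ± 0.34). Mutant 2 alone was thus high on this probe set. On its other tested probe set both mutant arrays lay above both control arrays, at 129 and 171, against 125 and 114 (0.29 ± 0.19). Col24a1, a fibrillar chain linked to bone formation, gave 91.9 and 51.6 on the mutant arrays, against 18.3 and 114 on the control arrays (0.35 ± 0.67). Control 1 was the lowest, and mutant 1 and control 2 lay above the other pair, by 1.78 times between nearest arrays. Across the 8 fibrillar genes, 5 differences lay above 0 and 3 below, and the median was 0.067. By the probe sets that stand for the genes, 0 had groups that did not overlap (8.97% of tested genes lay above and 11.0% below). The median turned to -0.096 without mutant 1 and to -0.014 without control 1, and it was 0.21 without mutant 2.

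The 6 FACIT genes were led by Col12a1, Col14a1 and Col16a1, which bind to the surface of fibres. Col12a1 gave 1499.8 and 1224 on the mutant arrays, against 1411 and 1933 on the control arrays, a difference of -0.28 ± 0.20 with control 2 the highest. Col14a1 went the other way, with 2296 and 1979 on the mutant arrays, against 1992 and 1608 on the control arrays (0.25 ± 0.16), and control 2 the lowest. Col16a1 gave 915 and 929 on the mutant arrays, against 627 and 956 on the control arrays (0.25 ± 0.22), so control 1 alone was low. Overlap between groups remained in all 3 on these probe sets. On another tested Col14a1 probe set both mutant arrays lay above both control arrays, at 910 and 786, against 734 and 630 (0.31 ± 0.15). On the last tested Col14a1 probe set the groups overlapped. By the probe sets that stand for the genes, the only tested FACIT member without overlap was Col19a1. It gave 67.2 and 78.1 on the mutant arrays and 57.0 and 67.2 on the control arrays, where mutant 1 and control 2 differed by 0.000109 log2 units. Its other tested probe set overlapped, at 63.3 and 67.1 on the mutant arrays, against 66.7 and 50.4 on the control arrays. Col20a1 gave 58.6 and 29.2 on the mutant arrays, against 27.4 and 56.7 on the control arrays, and so followed the pairs. Col22a1, a chain of the muscle-tendon junction, was dim except on mutant 2, with 6.70 and 90.1 on the mutant arrays and 4.94 and 6.70 on the control arrays. Its groups did not overlap either, by 0.000107 log2 units between mutant 1 and control 2, but it lay under the filter. The median of the 5 tested FACIT genes was 0.18, and it turned to -0.052 without control 1.

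Type VI collagen, which forms beaded filaments between fibres and cells, had 1 order of the pairs in its 3 main chains. Col6a1 gave 4455 and 3023 on the mutant arrays, against 3024 and 4394 on the control arrays, and its log2 difference was 0.0096 ± 0.27. Col6a2 gave 5261 and 3606 on the mutant arrays, against 3825 and 4966 on the control arrays, and Col6a3 gave 4862 and 3547, against 3839 and 4553. All 3 chains of the trimer had mutant 1 and control 2 above mutant 2 and control 1 (23.9% of tested genes). The nearest arrays of the pairs were apart by 1.45 times for Col6a1 and 1.19 times for Col6a3. By label the log2 differences of Col6a2 and Col6a3 were -0.00090 and -0.0096. All 6 dermal fibroblast markers had the same pair high (23.9% of tested genes), by 1.01 times for Pdgfra to 7.26 times for Crabp1 between nearest arrays. The part of these markers' cells in the type VI values was not tested. The Col6a4 and Col6a5 probe sets stayed at or under 10.8 on every array. Col26a1, a short collagen of mesenchyme, followed the same pairs at 915 and 588 on the mutant arrays, against 589 and 964 on the control arrays (-0.038 ± 0.32).

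The type VIII chains, network collagens of vessel walls and cornea, went in opposite directions between the pairs. Col8a1 gave 497 and 198 on mutant 1 and mutant 2, against 94.9 and 476 on control 1 and control 2. Col8a2 gave 84.6 and 516 on the mutant arrays, against 368 and 61.2 on the control arrays. The arrays that were high for Col8a1 were therefore the low ones for Col8a2, with nearest arrays of the pairs apart by 2.40 and 4.35 times. By label their log2 differences were 0.50 ± 0.81 and 0.43 ± 1.07. A second Col8a1 probe set past the filter had the same order of pairs. The median of the 6 tested genes of the type VI, VIII and XXVI group was 0.00437, and with 1 array left out it lay between -0.25 (without mutant 1) and 0.27 (without mutant 2), with -0.22 without control 1 and 0.23 without control 2.

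Among basement membrane collagens, the main type IV chains differed little between arrays and type VII differed widely. Col4a1 gave 3726 and 3955 on the mutant arrays, against 4024 and 3904 on the control arrays (-0.046 ± 0.12), and its highest array exceeded its lowest by 1.08 times, the least of the 42 genes. Its partner Col4a2, transcribed from the opposite side of a shared promoter region, gave 1359.6 and 1511 on the mutant arrays, against 1437 and 1562 on the control arrays (-0.063 ± 0.13). The groups overlapped for both on these probe sets. On the other tested Col4a1 probe set both mutant arrays lay below both control arrays, at 1322 and 1269 on the mutant arrays, against 1389 and 1619 on the control arrays (-0.21 ± 0.13). Col18a1, whose product lies in vessel and epithelial basement membranes and releases endostatin, gave 598 and 717 on the mutant arrays, against 719 and 768 on the control arrays. Both mutant arrays were thus below both control arrays, by -0.18 ± 0.14, although mutant 2 and control 1 differed by -0.0028 log2 units. The endothelial genes Pecam1, Cdh5, Kdr, Tek and Emcn, whose cells make such membranes, summed to 2244 and 2642 on the mutant arrays, against 2766 and 2480.4 on the control arrays, and their part in the Col18a1 values was not tested. Col4a5 and Col15a1 differed by 0.054 and -0.050 log2 units, while Col4a3, Col4a4 and Col4a6 were dim at 3.91 to 37.0.

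Col7a1, the anchoring fibril collagen made by keratinocytes and fibroblasts, had the widest gap between the pairs among the tested collagens. It gave 830.2 on mutant 1 and 88.9 on mutant 2, against 118 on control 1 and 992 on control 2. The pairs were thus apart by 7.02 times between their nearest arrays, while within the pairs the differences were -0.35 (mutant 2 minus control 1) and -0.25 (mutant 1 minus control 2) on the log2 scale. By label the difference was -0.30 ± 1.34, and it ran from -1.81 without mutant 1 to 1.20 without mutant 2. Only 1 probe set measured the gene. All 6 dermal fibroblast markers had the same pair high (23.9% of tested genes), but by unlike amounts. The widest was Crabp1, at 5516 and 748 on the mutant arrays, against 712 and 5435 on the control arrays. The nearest arrays of the pairs were apart by 7.26 times for Crabp1, 2.35 for Twist2, 2.22 for Dpt, 1.27 for Lum, 1.12 for Dcn and 1.01 for Pdgfra. The epidermal keratins Krt14 and Krt5 did not, with Krt14 at 247 and 139.6 on the mutant arrays, against 112 and 79.7 on the control arrays. The 8 epidermal markers summed to 4299 and 996 on the mutant arrays, against 916 and 977 on the control arrays, so their high array was mutant 1 alone. However, 3 of the 8, Krt1, Krt10 and Lor, also had mutant 1 and control 2 above the other pair (23.9% of tested genes). The part of either cell type in the Col7a1 values was not tested. Of the 6 tested basement membrane genes, 5 lay below 0 and 1 above, with a median of -0.056. It was -0.21 without control 1 and turned to 0.074 without control 2.

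**Figure D2:**
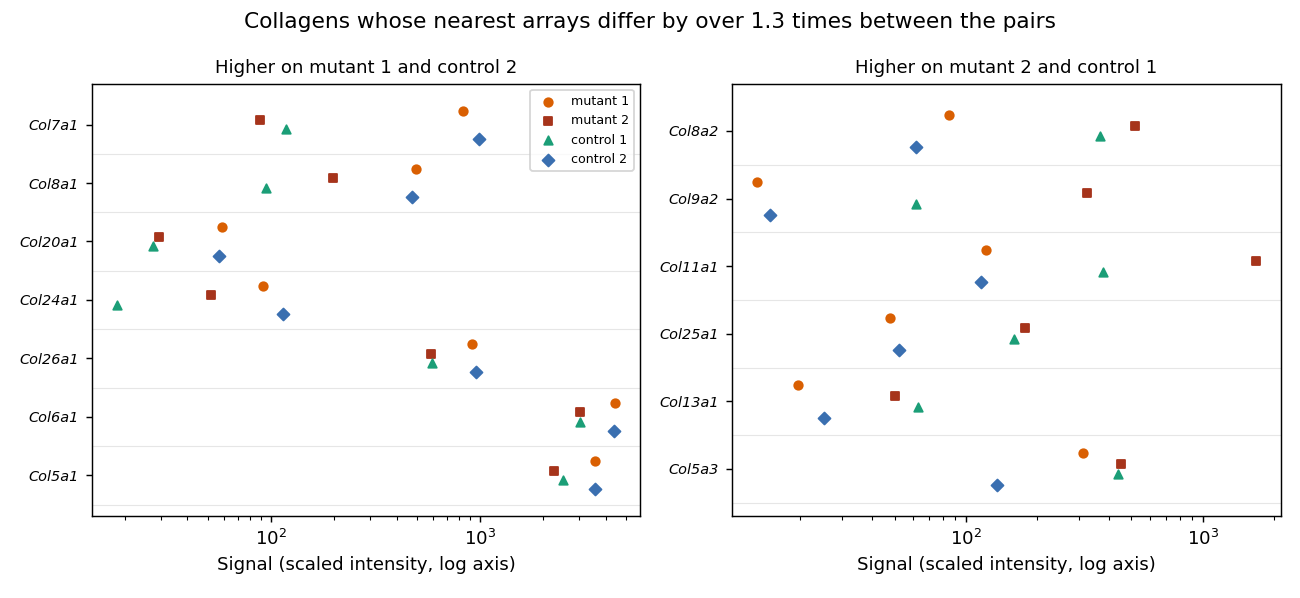
Signal (x axis, scaled intensity on a log axis) of the 13 tested collagens for which the nearest arrays of the pairs differed by over 1.3 times, 7 higher on mutant 1 and control 2 (left, 4.92% of tested genes) and 6 higher on mutant 2 and control 1 (right, 7.33% of tested genes), widest split at the top. Col7a1 leads the left panel and Col8a2 the right one.

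Cartilage collagens had one pattern on the arrays, with mutant 2 the highest for all 7. For the 6 tested it exceeded the next array by over 4 times, as it did for 17 of 11413 tested genes (0.149%). The filter takes the mean of all 4 arrays, and Col2a1, Col9a2, Col9a3 and Col11a2 reached it only through mutant 2. Being tested thus depended on that array, and the share is no independent support. For Col2a1, whose product is the chief cartilage fibre, signals were 3.14 on mutant 1 and 2857 on mutant 2, against 13.2 on control 1 and 17.2 on control 2. Col9a1, a chain of the type IX collagen that coats type II fibrils, gave 124 and 2895 on the mutant arrays, against 65.2 and 159.9 on the control arrays. Col9a3, of the same trimer, gave 5.58 and 1226 on the mutant arrays, against 12.8 and 20.3 on the control arrays. Mutant 1 was below control 2 for all 3, though for Col2a1 and Col9a3 both of these arrays lay under or close to a dim signal of 20. The third type IX chain, Col9a2, gave 13.1 and 323 on the mutant arrays, against 61.4 and 14.9 on the control arrays, so control 1 was intermediate. Col11a1, the type XI chain that nucleates cartilage fibrils and is also made by other mesenchyme, had control 1 intermediate too, with 122 and 1672 on the mutant arrays and 379.7 and 116 on the control arrays. Col11a2 gave 23.7 and 307 on the mutant arrays, against 15.3 and 18.5 on the control arrays. Col10a1, made by hypertrophic chondrocytes, gave 0.867 and 861 on the mutant arrays, against 0.745 and 0.480 on the control arrays, and fell under the filter because 3 of its 4 values were near 0.

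By label the cartilage median was 2.06 on the log2 scale, with all 6 tested genes above 0 and 0 called by limma. The largest differences were 2.91 ± 2.32 for Col2a1, 2.42 ± 1.45 for Col9a1 and 2.34 ± 1.88 for Col9a3 (limma's moderated SE, n = 2 per group). Col11a1 differed by 1.08 ± 1.27. Without mutant 2 the median turned to -0.64, with Col2a1 and Col9a3 under or close to 20 on the arrays left, and it was 3.95 without mutant 1. Second probe sets of Col9a1, Col9a3 and Col11a1 past the filter had the same highest array. The 9 other cartilage genes found were all highest on mutant 2 too, as 25.6% of tested genes were. Of these, Acan, Matn1, Hapln1 and Comp reached the filter only through that array, so being tested is no independent support. The 9 found of the 10 listed cartilage markers, 7 of them tested, summed to 209 on mutant 1 and 5138 on mutant 2, against 285 on control 1 and 201 on control 2. Signals under 20 were seen for 5 of the 9 on mutant 1 and 0 on mutant 2, against 5 on control 1 and 6 on control 2. The proteoglycan Acan gave 16.6 and 612 on the mutant arrays, against 19.2 and 12.8 on the control arrays. Sox9, the regulator of cartilage fate, gave 29.4 and 126 on the mutant arrays, against 74.9 and 27.8 on the control arrays. The part of cartilage tissue in the collagen values was not tested.

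**Figure D3:**
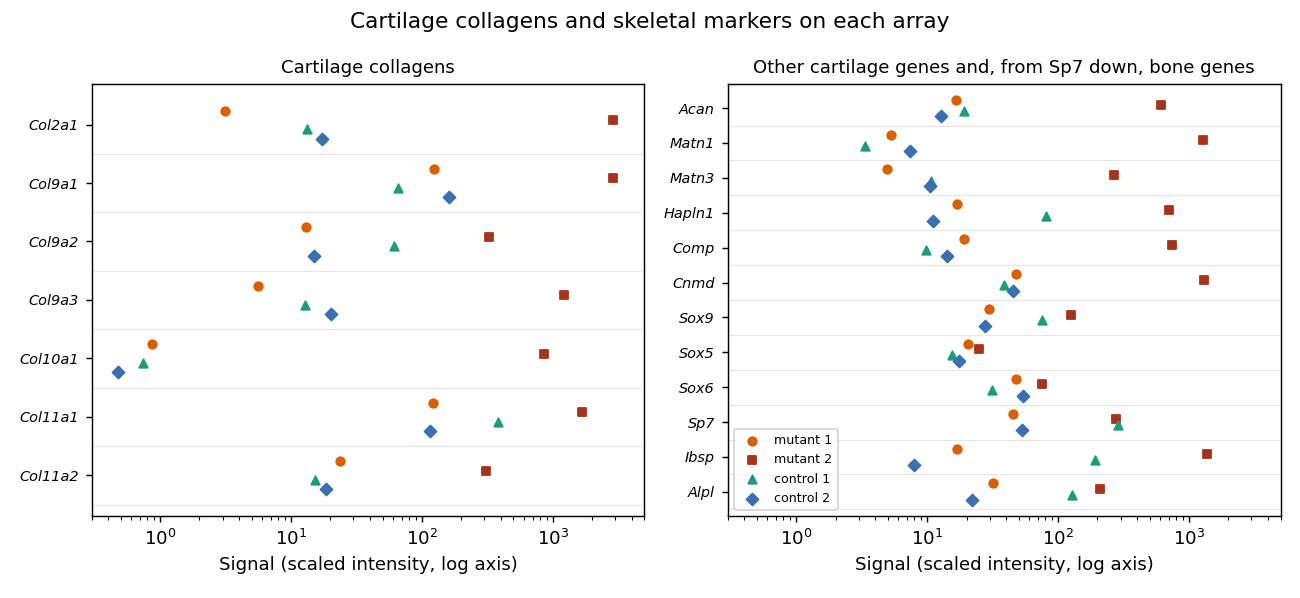
Signal (x axis, scaled intensity on a log axis) of the 7 cartilage collagens (left) and of 9 other cartilage and 3 bone genes (right) on each array (points). Mutant 2 is the rightmost point for all 7 collagens, and control 1 is well to the right of mutant 1 and control 2 for Col9a2 and Col11a1 on the left and for Hapln1, Sox9, Sp7, Ibsp and Alpl on the right.

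**Figure D4:**
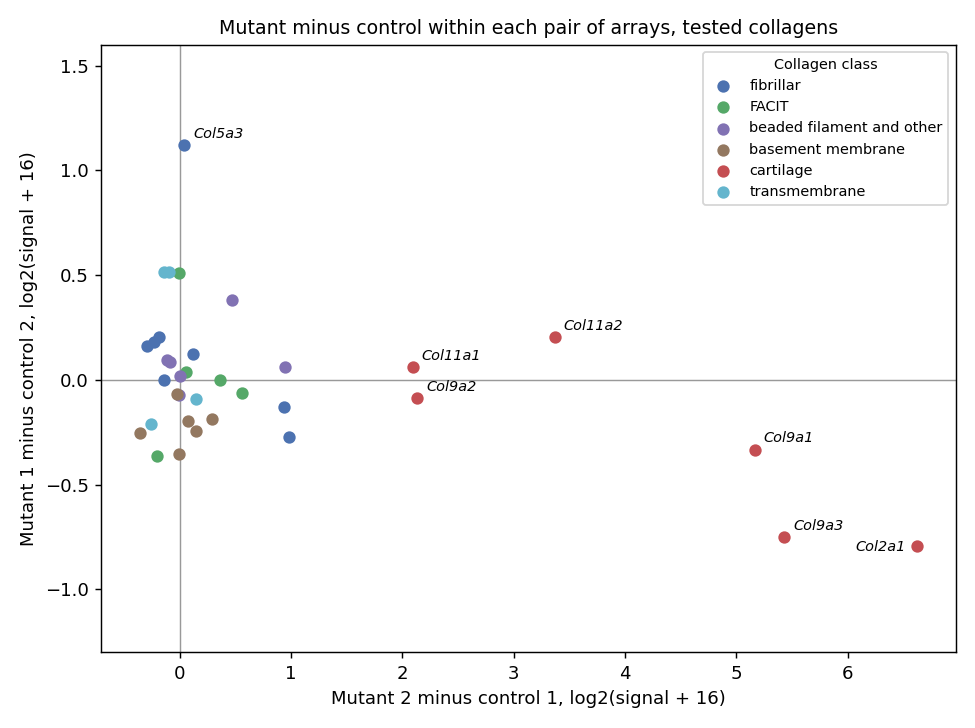
Mutant minus control on the log2(signal + 16) scale for the 35 tested collagens, for mutant 2 against control 1 (x axis) and mutant 1 against control 2 (y axis), coloured by class. The 6 cartilage collagens lie from 2.09 to 6.62 on the x axis and from -0.79 to 0.20 on the y axis, and Col5a3 is the only member over 1 on the y axis.

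Bone and tendon markers were also high on mutant 2, and several on control 1. Ibsp, a bone matrix protein, gave 17.0 and 1365 on the mutant arrays, against 190.1 and 7.97 on the control arrays. Tnmd, a tendon gene, gave 187 and 1527 on the mutant arrays, against 1573 and 185 on the control arrays. Control 1 thus lay with mutant 2 for Tnmd, but far below it for Col2a1. The 3 bone markers found of 6 listed summed to 93.9 and 1848 on the mutant arrays, against 606 and 82.7 on the control arrays, and the 4 tendon markers to 288 and 1844, against 1692 and 264. The adipocyte markers, a cell type of the deep dermis, summed to 2904 and 12223 on the mutant arrays, against 12910.3 and 1606 on the control arrays.

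Of the 4 transmembrane collagens, 2 were higher on mutant 2 and control 1 than on the other pair (29.6% of tested genes) and 1 was lower (23.9% of tested genes). Col25a1, a neuronal and muscle chain, gave 47.8 and 177 on the mutant arrays, against 159 and 51.9 on the control arrays (0.027 ± 0.69). Col13a1, a chain of cell adhesion sites, gave 19.5 and 49.96 on the mutant arrays, against 62.8 and 25.1 on the control arrays. Its log2 difference was -0.23 ± 0.45. Col13a1 was the only collagen among the 153 probe sets of the authors' deposited table, which lists it at a fold of 4.95, mutant over control. That is the opposite sign to the difference by array label, while mutant 2 and control 1 were the high arrays. The authors' deposited table was selected from these same arrays. Col23a1 ran the other way, with 310.3 and 155 on the mutant arrays, against 172 and 213 on the control arrays (0.19 ± 0.34). Col17a1, the hemidesmosome collagen of basal keratinocytes, gave 41.1 and 29.6 on the mutant arrays, against 32.6 and 24.0 on the control arrays (0.21 ± 0.23), with mutant 1 the highest as for Krt14. The median of these 4 genes was 0.11 and turned to -0.29 without control 2 and to -0.15 without mutant 2, and it was 0.29 without control 1.

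Most genes of collagen modification and folding had a higher mean on the mutant arrays, by small amounts. Of the 29 enzymes and chaperones found, 27 were tested, 24 lay above 0 (48.7% of tested genes) and 3 below, and the median was 0.13, with 0 called by limma and 1, the prolyl hydroxylase complex member P3h4, at an unadjusted p under 0.05, as for 0.859% of tested genes (0.34 ± 0.12, limma unadjusted p = 0.0411, adjusted p = 0.9999). Both mutant arrays lay above both control arrays for 6 (8.97% of tested genes) and below for 1 (11.0% of tested genes). Some cell type marker lists were also higher by label, but not all. The medians lay below 0 for dermal fibroblast (-0.048, 5 of 6 genes below 0), endothelial (-0.092), leukocyte (-0.049) and pericyte markers (-0.032). Those of the other cell type lists lay above 0. All 8 skeletal muscle markers lay above 0, with a median of 1.15 and summed signals of 12544 and 5714 on the mutant arrays, against 2303 and 6528 on the control arrays. All 8 epidermal markers did too, with a median of 0.94 and the sums given beside Col7a1. No marker of either list was under 20 on a mutant array, and the part of either cell type in the processing genes was not tested. The collagen chaperone Serpinh1 gave 6228 and 4806 on the mutant arrays, against 5418 and 5160.5 on the control arrays (0.049 ± 0.17), and the collagen-binding Sparc gave 7485 and 5699, against 6015 and 6611 (0.051 ± 0.18). These overlapped between labels, as type I collagen did. The largest differences were those of Pcolce2, an enhancer of procollagen cleavage, at 11.51 and 329 on the mutant arrays and 104 and 10.1 on the control arrays (0.80 ± 1.37), and of the crosslinking enzyme Loxl4 at 70.3 and 67.2, against 28.0 and 57.0 (0.58 ± 0.29).

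The prolyl and lysyl hydroxylases, which modify nascent chains, included genes of both pair orders. These genes were picked after their values were seen. P4ha2, a catalytic subunit of prolyl 4-hydroxylase, gave 1448 and 484 on the mutant arrays, against 347 and 1432 on the control arrays. Plod2, the lysyl hydroxylase of the telopeptides, gave 339 and 1044 on the mutant arrays, against 733 and 286 on the control arrays, the reverse order. Of the 27 tested genes of the list, 12 lay lower on mutant 2 and control 1 (23.9% of tested genes) and 4 higher (29.6% of tested genes).

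Collagen receptors lay on both sides of 0. Of 9 found, 7 were tested, 3 lay above 0 and 4 below, and 0 were called by limma or had an unadjusted p under 0.05. Itgb1, the common beta chain of the collagen-binding integrins, gave 1343 and 1094 on the mutant arrays, against 1443 and 1324 on the control arrays (-0.19 ± 0.15). The receptor kinase Ddr2 gave 945 and 1068 on the mutant arrays, against 1049.8 and 1072 on the control arrays (-0.078 ± 0.12). Itga10, the chondrocyte integrin, was highest on mutant 2, at 36.9 and 77.3 on the mutant arrays and 29.0 and 39.8 on the control arrays (0.49 ± 0.33). Groups did not overlap for 2 receptors. Mrc2, an endocytic collagen receptor, lay higher on both mutant arrays (8.97% of tested genes), at 335.9 and 325 on the mutant arrays, against 269.7 and 295 on the control arrays (0.22 ± 0.13). Itga2, the alpha chain of a collagen-binding integrin, lay lower (11.0% of tested genes), at 24.9 and 28.7 on the mutant arrays, against 36.7 and 34.6 on the control arrays (-0.27 ± 0.19).

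**Figure D5:**
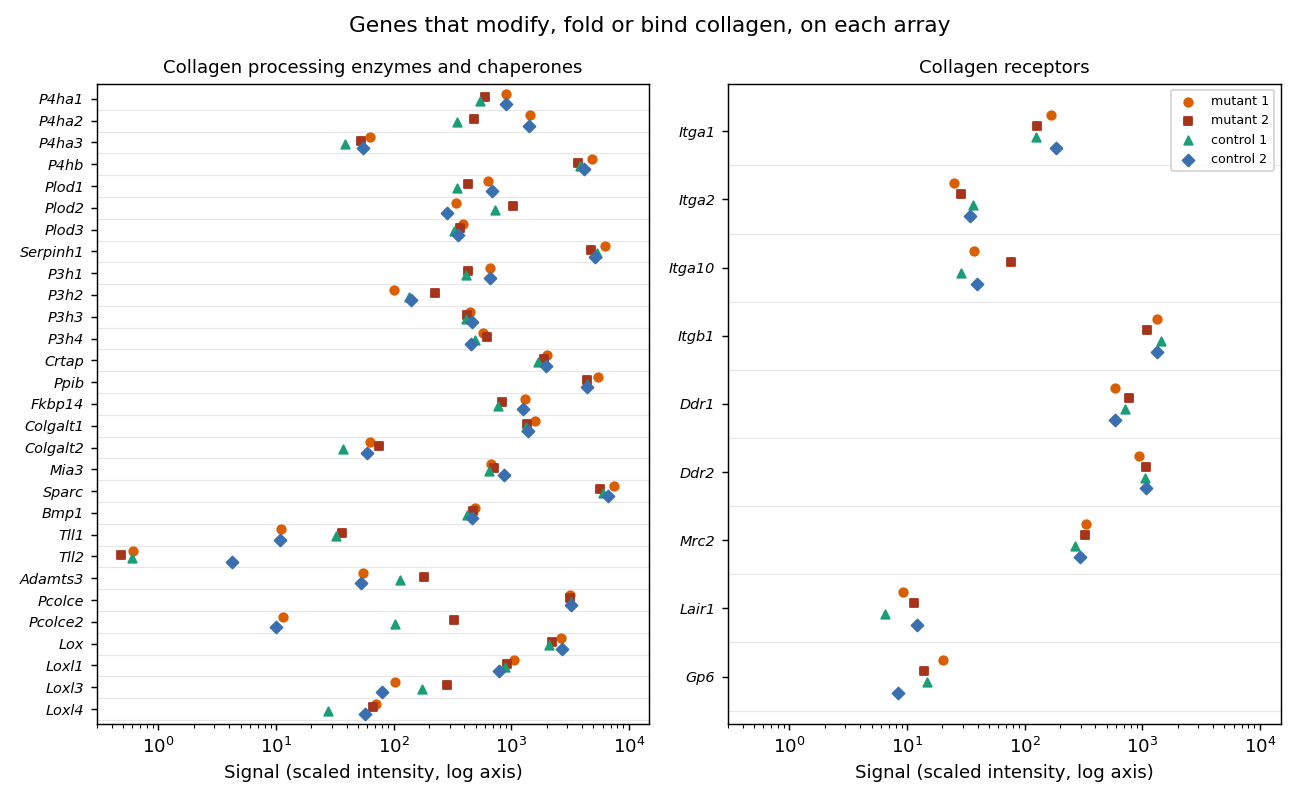
Signal (x axis, scaled intensity on a log axis) of 29 collagen processing genes (left) and 9 collagen receptors (right) on each array (points). P4ha2 has mutant 1 and control 2 to the right, Plod2 and Pcolce2 have mutant 2 and control 1 to the right, and Ddr2 has the 4 arrays close together.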

How the data were processed

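RNA of 4 dermis samples was hybridised to Affymetrix Mouse Genome 430 2.0 arrays. The deposited values are signal intensities on a linear scale, made with GCOS and MAS5 per the submitters' processing notes, with no version named. The deposited table of changed probe sets gives the authors' fold, a ratio of GCRMA values per the file headers, and its 4 per-embryo columns were not used. Here 64 array controls were left out, and mutant and control were compared with limma 3.58.1 (R 4.3.3; intensity trend, two-sided, Benjamini-Hochberg) on log2(signal + 16), without a block, over probe sets at or above the median mean of 5.52 log2 units, a scale that understates changes of dim genes. The test was run on simulated data only to check that it recovered the sign of changes. Those data had independent noise of the same size for every probe set and no pairs, unlike these arrays. Python 3.11.15, pandas 2.3.3 and matplotlib 3.10.9 were used. Signals of different probe sets do not rank transcripts. The number of arrays limits the precision, and the p-values rest on 2 embryos per group. Numbers from the labels did not pair the samples (correlation of deviations -0.62). The members and gene lists were chosen with earlier results of these data known. Named genes were, per class, the 3 with the highest mean and the 3 with the largest differences, and members of the authors' deposited table, and, per partner list, 2 of each kind. Other genes named were chosen after their values were seen. Scanning day could not be used as a block, since all arrays share 1 day, and each array had its own fluidics module.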

Additional observations from a re-analysis of the deposited data

How the results depend on the processing

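With pseudocounts of 1 or 64, no filter or one at the 75th percentile, quantile or median scaling, no intensity trend, all probe sets of a gene averaged, or the replicate block by label number, 0 collagens and 0 partner genes passed in limma. The replicate block gave 0 probe sets past the threshold, the crossed block 108 with 0 collagens, and without mutant 2 there was 1 (0 without any other array). The count of collagens with both mutant arrays above was 0 with the stricter filter (7.64% of genes tested in that fit) and 5 with none (11.2%), and 7 to 14 without 1 array (26.2 to 32.7%). That below was 2 with averaged probe sets (12.5%), 3 with median scaling (12.4%) and 3 to 12 without 1 array (30.2 to 32.3%). Without 1 array, medians ran from -0.052 to 0.28 for FACIT, -0.21 to 0.074 for basement membrane, -0.64 to 3.95 for cartilage and -0.29 to 0.29 for transmembrane collagens. Over these fits the sign turned for 25 of 35 named genes, whose log2 differences ran over these ranges. They were -0.048 to 0.29 for Col1a1, -0.20 to 0.15 for Col1a2, -0.70 to 6.53 for Col2a1, -0.26 to 0.13 for Col3a1, -0.14 to 0.013 for Col4a2, -0.21 to 1.37 for Col5a3, -0.27 to 0.29 for Col6a1, -0.27 to 0.27 for Col6a2 and -0.24 to 0.22 for Col6a3. They were -1.81 to 1.20 for Col7a1, -0.57 to 1.58 for Col8a1, -0.77 to 1.63 for Col8a2, -0.58 to 5.26 for Col9a3, -0.73 to 2.89 for Col11a1, -0.70 to 0.24 for Col13a1, -0.052 to 0.55 for Col16a1 and -0.28 to 0.66 for Col23a1. They were -0.61 to 1.32 for Col24a1, -0.77 to 0.83 for Col25a1, -0.39 to 0.31 for Col26a1, -0.085 to 0.89 for Col27a1, -0.16 to 0.0097 for Ddr2, -1.02 to 2.63 for Pcolce2, -0.14 to 0.24 for Serpinh1 and -0.15 to 0.25 for Sparc. Median scaling gave -0.00817 for Col25a1 and -0.0237 for Col6a1, and averaged probe sets 0.0154 for Col6a2. The cause was not tested. Collagens at an unadjusted p under 0.05 numbered 1 to 7 without 1 array (1.22 to 1.77% of tested genes), 7 of them without mutant 1, and 11 with the crossed block (5.24%). A block by scanning day or module was not run, since 1 day holds all arrays and each module 1 array. The crossed block was chosen after seeing the data, and the cartilage genes in its count differed mainly between mutant 2 and control 1. Of 18 genes with over 1 tested probe set, 14 had 1 sign in all of them, which Col4a5, Col5a2, Col6a2 and Col23a1 did not, and 13 had 1 pair order, which Col1a2, Col3a1, Col4a1, Col5a2 and Col19a1 did not.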
